A study of Cricetulus griseus with 19 samples.

Results

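Slc20a1 encodes PiT1, a sodium-coupled phosphate transporter of the plasma membrane. Its RNA was followed across 19 libraries of Paradaux cells, a derivative of the Chinese hamster ovary line CHO-K1 with a synthetic circuit by which a population regulates its size. Slc20a1 is 1 gene, with 1 transcript target that carries its symbol (NM_001244012.2, 3050 nt) among the 46718 in the quantification. Predicted transcripts carry no symbol, so Slc20a1 stands here for its named target alone. It was chosen from measured values of the same libraries, because it was lower under both feedback conditions while most genes that carry a symbol were higher. Its differences between each feedback condition and the uncontrolled cultures are therefore given as a description, without a test.

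The libraries came from 7 long-term cultures under paradoxical feedback, 7 under negative feedback, 4 with uncontrolled growth, and from 1 library of the parental line. In the negative feedback design, a signal released by the cells restrains further growth, and in the paradoxical design that signal both stimulates growth and kills. All were labelled CHO-K1, no other genotype was given, and cells were grown for 2 days below 80% confluence before polyadenylated RNA was taken. The inserted construct was present in every library, parental included, at 1227 to 2222 CPM, a count scaled to a common library total by the TMM method. None of 14 markers listed for mesenchymal, epithelial or other cell types carried a symbol among the targets, so the labelled cell type could not be checked by markers. Nothing in the labels tells if cultures of a condition were founded and kept separately, so p-values measure only the spread between these samples, which may be partly technical.

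Cells take up inorganic phosphate through sodium-coupled importers, of which PiT1 and its close relative PiT2, the product of Slc20a2, serve most cell types. Phosphate leaves the cell through the exporter encoded by Xpr1. Human PiT1 is also the receptor by which gibbon ape leukaemia virus enters cells, and in human cell lines the protein has been tied to proliferation independently of phosphate transport.

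Slc20a1 was an abundant transcript in every library, with 1222 to 3738 estimated counts from library totals of 9.91 to 13.2 M. Counting error alone was 2.86% at the lowest of these counts and 1.64% at the highest. By TPM, the deposited level per length, Slc20a1 ranked between 1241 and 3264 among all targets, with rank 1 as the highest. Its level averaged 142 ± 23.7 CPM in the paradoxical feedback cultures, 171 ± 27.8 CPM in the negative feedback cultures (SD, n = 7 each) and 251 ± 43.0 CPM where growth was uncontrolled (SD, n = 4). The parental library had 156 CPM. From high to low, the order was uncontrolled, negative feedback, parental and paradoxical feedback, and the ranges of neighbours in this order overlapped.

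Under paradoxical feedback, cultures 1 to 7 had 123, 138, 111, 169, 167, 162 and 125 CPM of Slc20a1. Under negative feedback, cultures 1 to 7 had 217, 185, 151, 156, 194, 145 and 149 CPM. The uncontrolled cultures 1 to 4 had 251, 263, 296 and 193 CPM. All 7 paradoxical feedback cultures lay below the lowest uncontrolled culture, number 4. Of the negative feedback cultures, 5 lay below that culture, and cultures 1 and 5 overlapped with it. The parental library fell below all 4 uncontrolled cultures and within the range of both feedback groups.

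**Figure D1:**
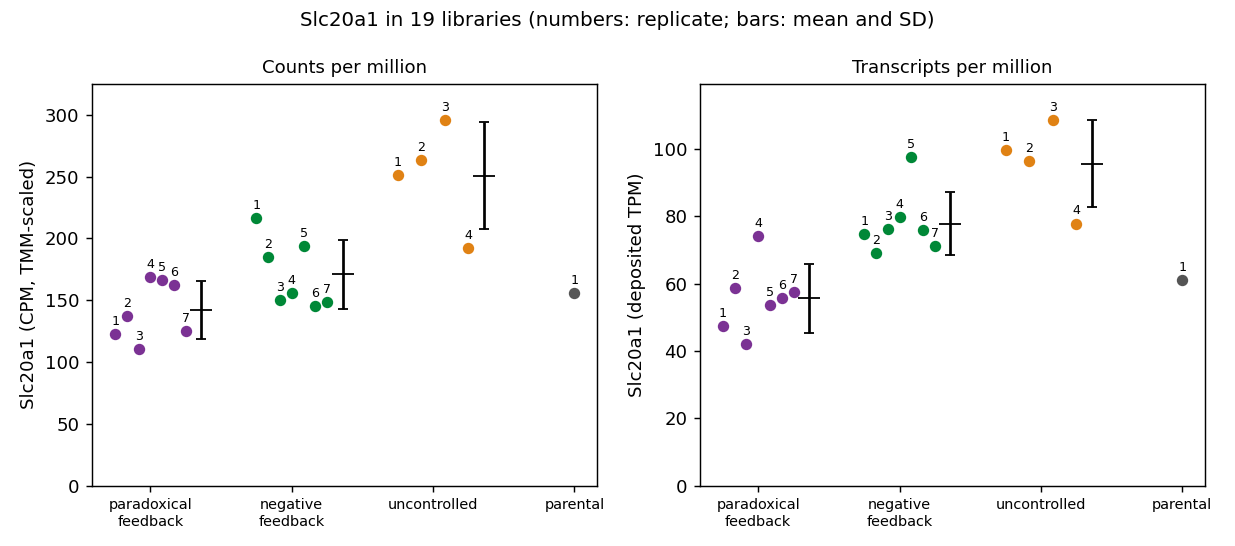
Level of Slc20a1 in each library, in TMM-scaled CPM (left) and in the deposited TPM (right), with the replicate number above each point and the mean ± SD at the side. The 7 paradoxical feedback cultures sit below the 4 uncontrolled cultures in both units, and the negative feedback cultures overlap with the uncontrolled ones.

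Replicate cultures of a group spread less for this gene than for most targets. The within-group SD of log2 CPM was 0.24, against a median of 0.90 over the 28555 targets that passed the filter on low counts, and 5.78% of those targets had a lower SD. Those targets were not matched to Slc20a1 in abundance, and counting error is larger at low counts. The rank is therefore not read as a trait of the gene. The coefficient of variation of Slc20a1 was 16.7% under paradoxical feedback, 16.2% under negative feedback and 17.2% in uncontrolled cultures, several times the counting error.

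Fitted with edgeR across all targets, the log2 fold change of Slc20a1 was -0.82 ± 0.15 (SE) for paradoxical feedback against uncontrolled cultures and -0.55 ± 0.15 (SE) for negative feedback against uncontrolled cultures. Both comparisons share the same 4 uncontrolled cultures. Over the 284 tested protein-coding genes that carry a symbol, the median log2 fold change was 0.55 for paradoxical feedback and 0.44 for negative feedback. Of these genes, 17 had a lower value than Slc20a1 under paradoxical feedback and 36 under negative feedback. Over all tested targets the medians were 0.02 and 0.04, and 21.5% of targets lay below Slc20a1 in the paradoxical feedback comparison and 30.6% in the negative feedback comparison. At an edgeR adjusted p under 0.05, 6.43% of tested targets were called under paradoxical feedback, 1.5% as lower, and 9.76% under negative feedback, 1.11% as lower. Since the gene was chosen on these comparisons, nothing is read from its place among them.

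Libraries of the negative feedback group differed widely among themselves in make-up. Targets under 800 nt took 14.1 and 13.3% of the counts in negative feedback cultures 1 and 2, and 6.12 to 7.22% in cultures 3 to 7. The share was 8.50 to 12.4% under paradoxical feedback, 12.2 to 13.4% in uncontrolled cultures and 11.8% in the parental library. Of cultures 3 to 7, 4 lay below both cultures 1 and 2 in Slc20a1, at 145 to 156 CPM, and culture 5, at 194 CPM, lay between them. Pearson's r between log2 CPM of Slc20a1 and the log2 share of short targets was 0.52 over 19 libraries and 0.56 within groups, as a description, since both come from the same counts. When cultures 3 to 7 were left out, negative feedback against uncontrolled cultures gave a log2 fold change of -0.32 ± 0.21 (SE), and without cultures 1 and 2, an alternative chosen after seeing the data, it was -0.68 ± 0.15 (SE). With the share of short targets as a covariate it was -0.31 ± 0.16 (SE). The part of library make-up in the difference was otherwise not tested. For paradoxical feedback against uncontrolled cultures these 3 fits gave -0.81, -0.84 and -0.66, all of the same sign.

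The unit also mattered for negative feedback. Slc20a1 averaged 55.6 ± 10.1 TPM in the paradoxical feedback cultures, 77.8 ± 9.41 TPM in the negative feedback cultures (SD, n = 7 each) and 95.6 ± 12.9 TPM where growth was uncontrolled (SD, n = 4), with 61.1 TPM in the parental library. On the log2(TPM + 0.1) scale the difference from uncontrolled cultures was -0.79 for paradoxical and -0.29 for negative feedback. The negative feedback cultures with few short targets moved up in this unit: culture 5 had 97.6 TPM, next to the 99.7 and 96.4 TPM of uncontrolled cultures 1 and 2.

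The estimated counts of Slc20a1 lay more than 0.015 from a whole number in 17 of 19 libraries, which happens when the quantifier divides reads among targets that share sequence. Among 46717 other targets there was 1 whose counts, added to those of Slc20a1, came to an integer within 0.015 in each of the 19 libraries. No further target did so in more than 5 libraries. That target, XM_027400394.1 of 1184 nt, carries no symbol in the sources used here. Such sums arise when ambiguous reads are divided between these targets alone, and the sum of both is then the upper limit of what could belong to Slc20a1.

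The partner target was minor in most libraries but not in negative feedback cultures 3 to 7. It had 32.4, 74.3, 43.3, 70.9, 17.5, 25.3 and 59.4 estimated counts in paradoxical feedback cultures 1 to 7. It had 12.5 and 27.1 estimated counts in negative feedback cultures 1 and 2, against 223, 292, 298, 206 and 157 in cultures 3 to 7. The uncontrolled cultures 1 to 4 had 13.5, 15.7, 17.0 and 22.0, and the parental library had 24.1. Its share of the pool was 1.02 to 4.24% under paradoxical feedback, 0.51 to 12.7% under negative feedback and 0.44 to 0.96% in uncontrolled cultures. The high shares were those of negative feedback cultures 3 to 7, at 7.64 to 12.7%. These were also the libraries with the lowest share of counts on short targets.

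Tested as a target of its own, the partner was called higher under negative feedback than in uncontrolled cultures, with a log2 fold change of 3.29 ± 0.73 (SE) and an edgeR adjusted p of 0.0236. The call held in 19 of 27 alternatives. All 4 leave-outs of an uncontrolled culture ended this call, with edgeR adjusted p between 0.0525 and 0.0774. Without negative feedback cultures 3 to 7 the partner fitted at a log2 fold change of 0.34. The call was also lost in a fit of only these groups (edgeR adjusted p = 0.0798) and with the share of short targets as a covariate, where the log2 fold change was 0.63 (edgeR adjusted p = 0.791). For paradoxical feedback against uncontrolled cultures it was 1.38 ± 0.66 (SE), and for paradoxical against negative feedback -1.91 ± 0.55 (SE), with edgeR adjusted p of 0.198 and 0.105.

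**Figure D2:**
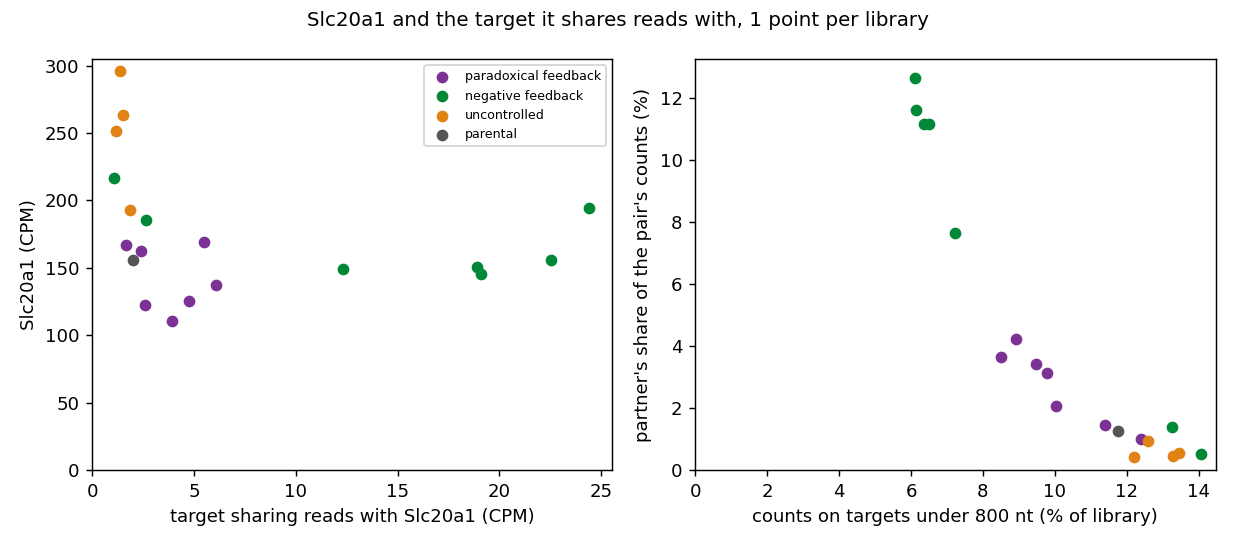
Slc20a1 against the target it shares reads with, in CPM (left), and the partner's share of the counts of both targets against the share of counts on targets under 800 nt (right), 1 point per library. Negative feedback cultures 3 to 7 stand apart on both axes of the right panel, at 7.64 to 12.7% and 6.12 to 7.22%.

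With the counts of both targets summed, an alternative chosen after seeing the data, levels were 146 ± 23.5 CPM for paradoxical feedback, 185 ± 24.1 CPM for negative feedback (SD, n = 7 each) and 252 ± 42.8 CPM for uncontrolled growth (SD, n = 4). The log2 fold change for negative feedback against uncontrolled cultures was then -0.44 ± 0.14 (SE), and that for paradoxical feedback -0.79 ± 0.14 (SE). Even with every read of the partner added to Slc20a1, both values were below 0.

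Paradoxical and negative feedback were compared directly, which the choice of the gene did not use. Slc20a1 was lower under paradoxical feedback in 37 of 49 pairs of cultures, with a log2 fold change of -0.27 ± 0.13 (SE) and an edgeR adjusted p of 0.301. An exact two-sided permutation test of log2 CPM over 7 against 7 cultures gave p = 0.0548. Neither passed 0.05, and 0.27% of all tested targets were called in this comparison. The negative feedback cultures 1, 2 and 5 lay above every paradoxical feedback culture, and the others overlapped.

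Both ways of counting that raise negative feedback cultures 3 to 7 made this difference larger. For the sum of Slc20a1 and its partner, the difference in mean log2 CPM was -0.35, lower in 42 of 49 pairs, with p = 0.0117 by the exact permutation test. For log2(TPM + 0.1) it was -0.50, lower in 47 of 49 pairs, with an exact permutation p of 0.00175. After Benjamini-Hochberg adjustment over these 3 exact permutation tests, p was 0.0548 for log2 CPM, 0.0175 for the sum and 0.00524 for TPM. The tests of the sum and of TPM were chosen after the values were seen. Across all targets the edgeR adjusted p of the sum was 0.159, which did not pass. Without negative feedback cultures 1 and 2 the log2 fold change of Slc20a1 itself was -0.16 ± 0.13 (SE, edgeR adjusted p = 0.431), and without cultures 3 to 7 it was -0.49 ± 0.18 (SE, edgeR adjusted p = 0.121).

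**Figure D3:**
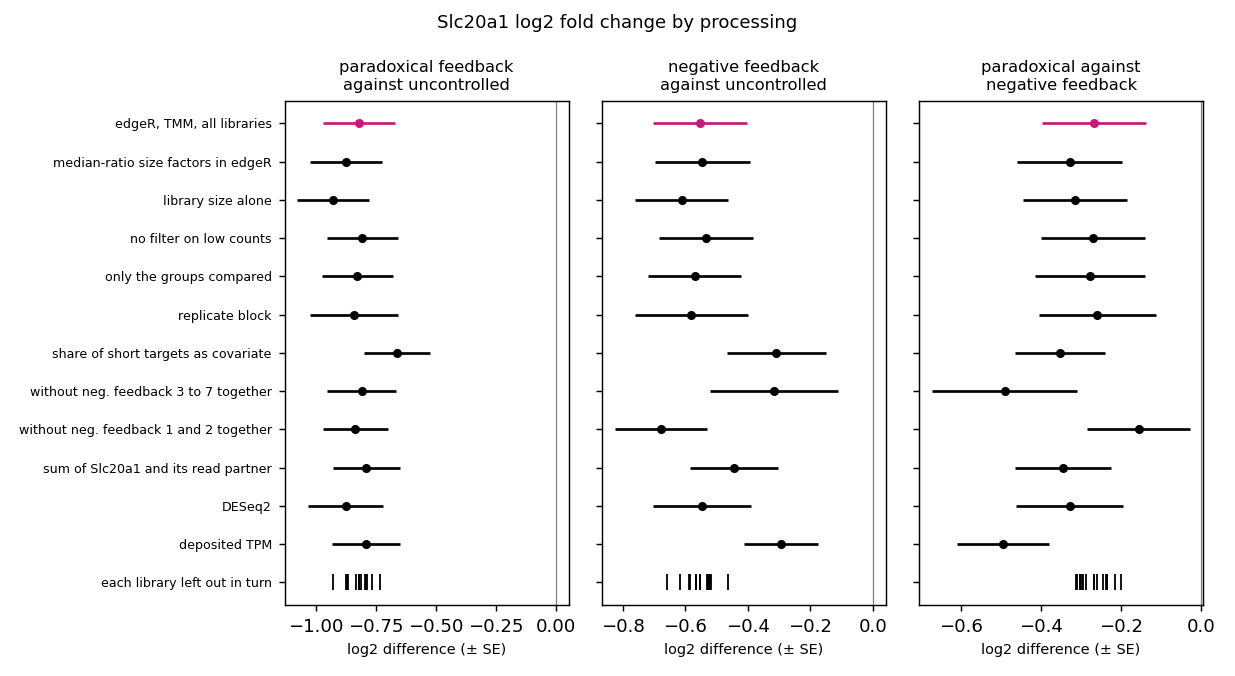
Log2 difference of Slc20a1 in each comparison by processing, with the standard error, and as ticks the values with each library left out in turn. All values are below 0, and those for negative feedback against uncontrolled cultures run from -0.68 to -0.29.

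Among other genes of phosphate handling, Xpr1 stood apart from Slc20a1. Of a list of 30 genes of phosphate transport and its control, 2 carried a symbol among the targets, namely Slc20a2 and Xpr1. Slc20a2 was at 0 in 18 of 19 libraries and reached at most 1.49 estimated counts, but predicted transcripts carry no symbol and were not summed, so other transcripts of Slc20a2 are not in these values. Xpr1, with whole counts, had 3.07, 5.49, 4.72, 8.19, 1.66, 2.78 and 4.41 CPM in paradoxical feedback cultures 1 to 7. It had 1.07 and 1.17 CPM in negative feedback cultures 1 and 2, against 26.1, 33.6, 28.8, 30.8 and 20.1 CPM for cultures 3 to 7. The uncontrolled cultures 1 to 4 had 0.740, 0.474, 0.949 and 1.78 CPM, and the parental library 1.93 CPM. The exporter was thus high in the same 5 negative feedback cultures that had a high partner target. In Slc20a1, culture 5 lay between cultures 1 and 2 and the other 4 lay below both. Many targets differed in these 5 cultures. Without cultures 1 and 2, 11460 of 28401 tested targets were called against uncontrolled cultures at an edgeR adjusted p under 0.05. No link between Xpr1 and the partner is therefore read from the shared cultures.

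The log2 fold change of Xpr1 was 4.35 ± 0.93 (SE) for negative feedback against uncontrolled cultures, with an edgeR adjusted p of 0.0236, where 8.65% of tested targets were called higher. The call held in 20 of 28 alternatives, among them DESeq2 (DESeq2 adjusted p = 1.3e-06). Leaving out any 1 uncontrolled culture ended it, with edgeR adjusted p from 0.0525 to 0.0774. Those leave-outs left 7 to 15 targets called over all. Without negative feedback cultures 3 to 7 the log2 fold change of Xpr1 was 0.19. A fit of only these groups also lost the call (edgeR adjusted p = 0.0798), and the covariate for short targets brought the log2 fold change to 0.84 (edgeR adjusted p = 0.761). For paradoxical feedback against uncontrolled cultures it was 2.12 ± 0.82 (SE, edgeR adjusted p = 0.119, DESeq2 adjusted p = 0.0363). For paradoxical against negative feedback it was -2.22 ± 0.66 (SE, edgeR adjusted p = 0.112, DESeq2 adjusted p = 0.00918).

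In mouse and human, the Xpr1 protein is also a receptor for certain murine leukaemia viruses. Of 9 genes listed as receptors for viral envelopes, 5 carried a symbol and 4 were tested. Under negative feedback 2 were called higher by edgeR, Xpr1 among them, where 8.65% of all tested targets and 28.2% of the 284 protein-coding targets with a symbol were called higher. Slc1a4, a neutral amino acid transporter, had a log2 fold change of 1.75 ± 0.71 (SE) against uncontrolled cultures and did not pass (edgeR adjusted p = 0.109). The Tfrc target was at 0 in 15 of 19 libraries, with at most 14.3 estimated counts.

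Of the other solute carriers, the large family of membrane transporters that includes Slc20a1, none was called lower in the 3 comparisons by edgeR. Of 16 that carried a symbol, 12 were tested. Under negative feedback 5 were called higher and 0 lower by edgeR, against 8.65% and 1.11% of all tested targets. Among the 284 protein-coding targets with a symbol, from which the carriers come, 28.2% were called higher and 0.352% lower. By DESeq2 7 carriers were called higher and 0 lower, against 17% and 5.46% of all tested targets. An unadjusted edgeR p under 0.05 was found for 7 of the 12, against 31.2% of all tested targets. For the DESeq2 and unadjusted counts the share over the 284 was not worked out, so no excess of carriers is read from them. Among the called genes were Slc31a1, a copper importer (2.19 ± 0.53), Slc25a32, a mitochondrial carrier (1.51 ± 0.42), Slc2a1, a glucose transporter (1.25 ± 0.34) and Slc35a3, a Golgi sugar-nucleotide transporter, all as log2 fold change ± SE. The Slc35a3 target had 4.94 to 15.4 CPM in negative feedback cultures 3 to 7 and no counts in cultures 1 and 2 or in any uncontrolled culture. Slc25a32 and Slc35a3 share reads with other targets. The median log2 fold change of the 12 was 0.99, also with Slc35a3 at the bound set by a floor of 3 counts per library, against 0.44 over the 284 targets with a symbol and 0.04 over all tested targets.

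The rises of these 4 genes lay in negative feedback cultures 3 to 7. Without those cultures the log2 fold changes of Slc31a1, Slc2a1 and Slc25a32 were -0.14, -0.058 and 0.020, and Slc35a3 was at 0 in both remaining cultures. Leaving out any 1 uncontrolled culture ended the calls of all 4. Leaving out any 1 of negative feedback cultures 3 to 7 ended those of Slc25a32, Slc2a1 and Slc35a3, and the Slc35a3 call was also lost without any of paradoxical feedback cultures 1 to 6. Over these leave-outs the edgeR adjusted p of the lost calls ran from 0.0507 to 0.112. A fit of only these groups ended all 4 calls, with edgeR adjusted p of 0.0798 to 0.0899. With the share of short targets as a covariate the log2 fold changes were 0.38 for Slc31a1, 0.30 for Slc25a32, 0.26 for Slc2a1 and 0.11 for Slc35a3, and none passed. The Slc35a3 call was also lost with library size alone and without the filter on low counts, at edgeR adjusted p of 0.0558 and 0.0595. Of 28 alternatives, the call held in 20 for Slc31a1, 15 for Slc25a32, 15 for Slc2a1 and 7 for Slc35a3.

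Under paradoxical feedback, 0 of 12 carriers were called by edgeR against uncontrolled cultures, where 4.93% of all tested targets were called higher and 1.5% lower. Of the 284 targets with a symbol, 19.7% were called higher there and 1.06% lower. The median log2 fold change of the 12 was 0.88, also with Slc35a3 at its bound, against 0.55 over the 284, and 8 had an unadjusted edgeR p under 0.05, against 25.8% of all tested targets. DESeq2 called 3 higher, Slc35c2 and Slc31a1 among them, and 0 lower, where it called 10.7% of all tested targets higher and 6.02% lower. Here too, the DESeq2 and unadjusted shares over the 284 were not worked out. Between paradoxical and negative feedback, 0 of 12 were called by edgeR and 0 by DESeq2, with 2 at an unadjusted edgeR p under 0.05, against 17.6% of all tested targets. By edgeR 0.165% of all tested targets were called higher and 0.105% lower in that comparison. This balance turned under other settings, with 1.68% higher and 4.61% lower by DESeq2, and 1 target higher and 10 lower with median-ratio factors.

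The carrier with the lowest log2 fold changes beside Slc20a1 was Slc3a2, the heavy chain of several amino acid exchangers. It stood at 274 ± 38.5 CPM under paradoxical feedback, 316 ± 128 CPM under negative feedback (SD, n = 7 each) and 390 ± 67.4 CPM in uncontrolled cultures (SD, n = 4). It split the negative feedback group, with 503 and 488 CPM in cultures 1 and 2, above every uncontrolled culture, and 182 to 307 CPM in cultures 3 to 7, below every uncontrolled culture. Its log2 fold change was -0.51 ± 0.24 (SE) for paradoxical and -0.31 ± 0.24 (SE) for negative feedback against uncontrolled cultures, with edgeR adjusted p of 0.183 and 0.387, so neither difference passed. Per length, Slc3a2 had 143 to 332 TPM over the 19 libraries, above the 41.9 to 108 TPM of Slc20a1, and Slc35c2 had 34.2 to 70.2 TPM. Slc35a1, a transporter of CMP-sialic acid, was close to level, at 0.016 ± 0.13 (SE) for paradoxical and 0.051 ± 0.13 (SE) for negative feedback against uncontrolled cultures on the log2 fold change scale.

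**Figure D4:**
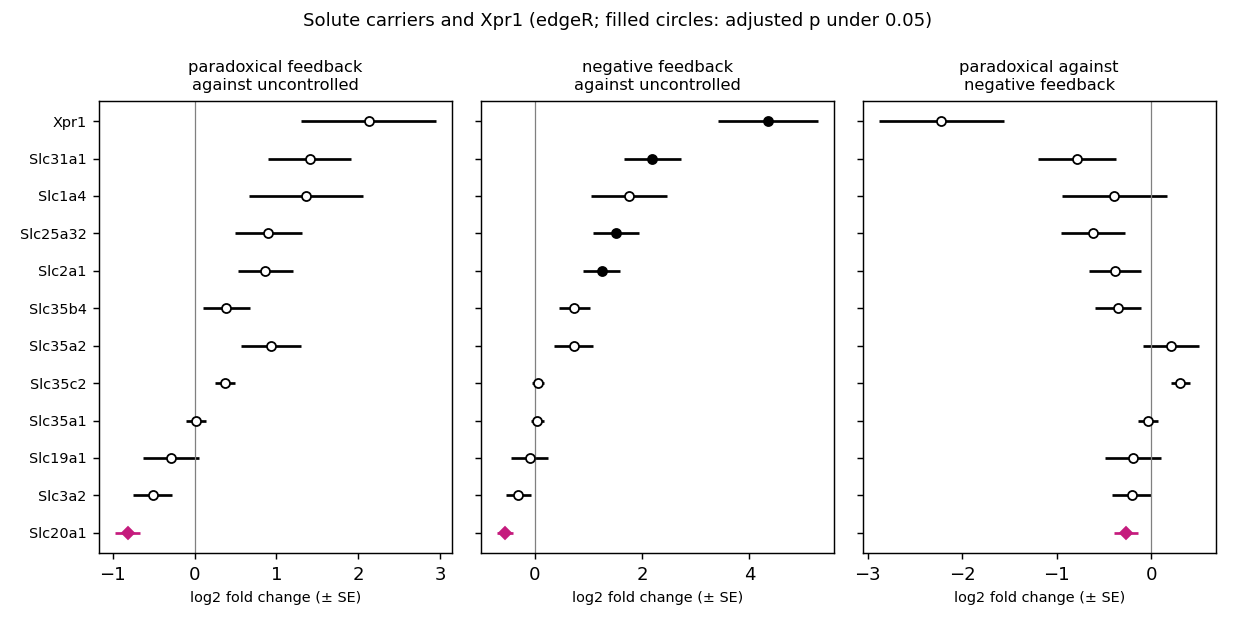
Log2 fold change with its standard error for Slc20a1 (diamond), Xpr1 and 10 of the 12 other tested solute carriers, Slc35a3 not among them, in each comparison, and filled circles mark an edgeR adjusted p under 0.05. Slc20a1 has the lowest value shown in both comparisons with uncontrolled cultures, at -0.82 and -0.55, and Xpr1 the highest, at 2.12 and 4.35; Slc20a1 was chosen for being lower there and was not tested.

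The genes whose pattern was most like that of Slc20a1 were sought among 241 protein-coding targets with a symbol and a mean log2 CPM of at least 1, by Pearson's r of log2 CPM over all 19 libraries. Such values are a description, since the libraries share the groups, the scaling and the make-up shown above, and the median r over the 241 was -0.42. The highest r belonged to Gmds, an enzyme of GDP-fucose synthesis, at 0.85. Next came Hspa5, the chaperone BiP of the endoplasmic reticulum (0.80), Creld2, a protein of the same compartment (0.77), Selenos, a selenoprotein of its membrane (0.75), and Vgf, a precursor of secreted peptides (0.72). As deviations from group means over the 18 long-term cultures, r was 0.70 for Gmds, 0.62 for Hspa5, 0.59 for Creld2, 0.56 for Selenos and 0.62 for Vgf. In log2(TPM + 0.1) over 19 libraries it was 0.82 for Gmds, and between 0.49 and 0.61 for the others.

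Gmds averaged 28.5 ± 4.66 CPM under paradoxical feedback, 33.6 ± 9.75 CPM under negative feedback (SD, n = 7 each) and 49.7 ± 10.5 CPM in uncontrolled cultures (SD, n = 4), with 36.6 CPM in the parental library. Its parental level was next to the lowest of the uncontrolled cultures, which had 37.1 to 62.8 CPM. For Slc20a1 the parental library had 156 CPM and the lowest uncontrolled culture 193 CPM. Hspa5 split the negative feedback group, with 11872 CPM in culture 1, 11149 CPM in culture 2 and 1768 to 1896 CPM among cultures 3 to 7. Hspa5 had 1071 to 2802 CPM under paradoxical feedback and 4868 to 11184 CPM in uncontrolled cultures.

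By Pearson's r over 19 libraries, the most opposite pattern was that of Apex1, a DNA repair enzyme with shared reads, at -0.85. It averaged 26.4 ± 3.72 CPM under paradoxical feedback, 21.8 ± 9.32 CPM under negative feedback (SD, n = 7 each) and 5.02 ± 3.04 CPM in uncontrolled cultures (SD, n = 4). Ilk, a kinase of cell adhesion sites with shared reads (-0.82), Icam1, an adhesion molecule (-0.82), and Dph2, an enzyme of diphthamide synthesis (-0.81), followed. By Spearman's rho the order was different, at -0.62 for Apex1, -0.75 for Ilk, -0.75 for Icam1 and -0.71 for Dph2. Within groups, r was -0.59 for Apex1, -0.56 for Ilk, -0.56 for Icam1 and -0.66 for Dph2. In log2(TPM + 0.1) it was -0.51 for Apex1, -0.45 for Ilk, -0.53 for Icam1 and -0.37 for Dph2, so the opposite patterns were weaker per length. Without uncontrolled cultures 2 and 3, the libraries farthest from the median of Slc20a1, r was 0.83 for Gmds, 0.81 for Hspa5, -0.71 for Apex1, -0.76 for Ilk, -0.76 for Icam1 and -0.73 for Dph2.

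**Figure D5:**
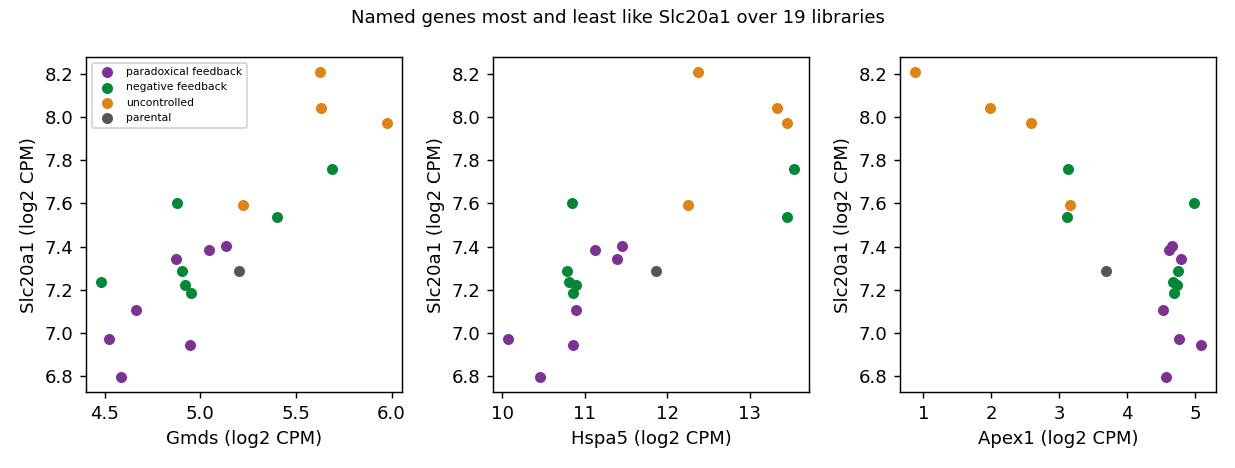
Level of Slc20a1 against Gmds, Hspa5 and Apex1, all in log2 CPM, 1 point per library and coloured by condition. Gmds (r = 0.85) and Hspa5 (r = 0.80) are high where Slc20a1 is high, and Apex1 runs opposite (r = -0.85). In each of these genes negative feedback cultures 1 and 2 lie apart from cultures 3 to 7.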

How the data were processed

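Per the submitters' processing notes, reads were trimmed with Trim Galore and assigned with kallisto. Versions, genome build, annotation and strand use were not given in the sources used here. As estimated count, the authors deposited the reads assigned to each transcript target, which need not be whole. Their deposited TPM values divide it by effective length. Symbols came by accession from a RefSeq gene table of assembly CriGri-PICRH-1.0, used for names only, which matched 528 targets, 334 of them protein coding, and no predicted transcript. Tests were therefore made per target.

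Estimated counts were rounded, filtered with filterByExpr, scaled by TMM and tested in edgeR 4.0.16 under R 4.3.3 (quasi-likelihood, 1 coefficient per condition, all 19 libraries). The SE of an edgeR log2 fold change was worked back from its test, as the absolute value divided by the square root of the quasi-likelihood F. Benjamini-Hochberg adjustment ran over 28555 targets, which were called at an adjusted p under 0.05. The code was tested on simulated data. DESeq2 1.42.0 was an alternative, and its missing adjusted p-values stayed missing. Log2 CPM used a prior count of 2, and TPM a pseudocount of 0.1. Exact permutation tests used scipy 1.17.1.

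Slc20a1, its lists (phosphate handling, viral receptors, solute carriers, cell markers) and the groups of libraries were chosen with earlier results of these data known. Named genes are Slc20a1, tested list members, the 5 most and 5 least alike by Pearson's r, and the insert. The read partner was found from its counts, after they were seen. A few genes from the lists and that likeness ranking are not reported here by name, though the counts include them.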

Additional observations from a re-analysis of the deposited data

Results flagged for a closer look

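In 84 sets of replicate cultures, 4 had 1 culture apart from the others by Dixon's criterion at 95%, which chance alone gives in about 1 of 20 sets. Negative feedback culture 5 had 97.6 TPM of Slc20a1, against 69.0 to 79.8 TPM in the other 6. In CPM the same culture was not set apart. Paradoxical feedback culture 1 had 37.6 CPM of Slc2a1, against 23.9 to 27.9 CPM in the others, and 33.9 CPM of Apex1, against 23.0 to 27.5 CPM. Paradoxical feedback culture 4, the highest of its group for Slc20a1, had 18.5 CPM of Vgf, against 2.09 to 5.08 CPM in the others.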

How the results depend on the processing

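In all 29 alternatives, Slc20a1 stayed below 0 in each of the 3 comparisons. For negative feedback against uncontrolled cultures it moved by more than the replicate spread to -0.31 with the share of short targets as a covariate and to -0.29 in TPM, and leaving out 1 culture gave -0.66 to -0.46. The cause was not tested. For paradoxical feedback against uncontrolled cultures leaving out 1 culture gave -0.93 to -0.73, and for paradoxical against negative feedback -0.31 to -0.20, with edgeR adjusted p of 0.224 to 0.469. With the replicate number as a block Slc20a1 stood at -0.84, -0.58 and -0.26 for paradoxical and negative feedback against uncontrolled cultures and for paradoxical against negative feedback, and the block left 4, 4 and 0 targets called over all. Deviations of same-numbered cultures correlated at -0.16 to 0.11. A culture correlated best with its own number in 10 of 30 comparisons with another group. The number to be had without pairing was not worked out, so this cannot tell if the numbers pair the cultures. Whether the block is needed was not tested. Without negative feedback cultures 3 to 7, Slc31a1 and Slc2a1 turned to -0.14 and -0.058.

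Counts of all targets called, which set the background shares, varied widely. For negative feedback against uncontrolled cultures 2787 became 10 in a fit of only these groups, 6 with the covariate, 13 without negative feedback cultures 3 to 7, 11460 without cultures 1 and 2 and 6424 by DESeq2. Leaving out 1 culture gave 7 to 6938, with 7 to 15 without any uncontrolled culture, 6938 and 6335 without negative feedback culture 1 or 2, and 965 to 1477 without any of cultures 3 to 7. For paradoxical feedback against uncontrolled cultures 1835 became 4956, 1145, 4926, 5675 and 4762 in the same order. Leaving out 1 culture gave 127 to 3204, with 127 to 644 without any uncontrolled culture, 3204 and 2966 without negative feedback culture 1 or 2, and 1104, 1005 and 1019 without paradoxical feedback culture 1, 3 or 6. For paradoxical against negative feedback 77 became 0, 697, 2454, 5937 and 1797 in that order, 11 with median-ratio factors, 42 with library size alone and 2 without a filter. Leaving out 1 culture gave 0 to 989 by edgeR, against 5033 targets at an unadjusted p under 0.05 with all cultures, and only paradoxical feedback cultures 2 and 7 could be left out with a count within 1.5 times of 77. Its 47 higher and 30 lower calls turned to 481 and 1316 by DESeq2, 1 and 10 with median-ratio factors and 304 and 685 without negative feedback culture 1. Higher against lower calls for paradoxical feedback against uncontrolled cultures were 1408 and 427, and 905 and 521 with library size alone. Between both feedback conditions the median over all targets was -0.059, and -0.12 with median-ratio factors. The reference names 1 Slc20a1 target, so no sum over its named targets was made.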
